A study of Mus musculus with 45 samples.

Results

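S100 proteins are small calcium-binding proteins that pair into dimers, open a binding face when calcium enters their EF-hand loops and attach to enzymes, cytoskeletal proteins and annexins. In heart muscle S100a1 is the best known member, where it binds the ryanodine receptor and the calcium pump of the sarcoplasmic reticulum. S100a4 and S100a6 are known from fibroblasts and other motile cells, S100a8 and S100a9 from neutrophils and monocytes, and S100b from glia, Schwann cells and fat. The transcripts of 10 S100 genes were followed here, chosen by gene symbol among the 23284 listed in each expression table. These were S100a1, S100a4, S100a6, S100a8, S100a9, S100a10, S100a11, S100a13, S100a16 and S100b.

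The study profiled Gata4 binding, histone marks and expression in mouse heart, to relate them across development and heart disease. Its 6 poly(A) RNA-seq libraries are used here, and the other 39 samples are chromatin libraries that were not analysed here. Adult heart had 2 libraries. E12.5 embryonic heart, E12.5 heart labelled Gata4 KO, heart after banding and heart after sham surgery had 1 library each. Banding is surgery that constricts an artery leaving the heart and so raises its load. The labels name neither the vessel, the time after surgery, the age of the operated mice nor the sex. They name the alleles Gata4fbio, Rosa26BirA, cTNTcre and Gata4flox for the whole study and give no genotype by library beyond the Gata4 KO label. Gata4fbio with Rosa26BirA gives a Gata4 protein that carries biotin, and cTNTcre drives Cre recombinase from a cardiac troponin T promoter, so that deletion is directed to cardiomyocytes. Pooled RNA went into the libraries, and since no label ties the adult libraries to separate pools, their spread, which is all that the p-values measure, may be technical.

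The libraries held 12086929 to 21056784 mapped reads, as recovered from the step size of the deposited values. Levels are log2(FPKM + 1), where FPKM is the fragment number scaled to transcript length and to mapped reads, so genes can be compared with each other. Reads on listed genes made up 75.6% to 82.2% of mapped reads in the embryonic and adult libraries but 53.9% in sham and 56.5% in banding. Over all genes compared, the median difference of sham from adult was -0.44 and that of banding from sham was 0.03. Gata4 stood at 5.93 in E12.5, 6.13 in the heart labelled Gata4 KO, 3.78 and 3.28 in adult, 2.29 in sham and 2.38 in banding. Gata4 transcript was therefore not lower in the library with the knockout label, and directions drawn from it rest on its label. The deleted part of the gene is not stated, so reads outside it would not check the label. All 12 cardiomyocyte markers were above 0 in every library. In bulk tissue, fewer cells of a type and less RNA per cell cannot be told apart.

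Of the 10 genes, 9 lie on mouse chromosome 3 and S100b lies on chromosome 10, by the RefSeq gene table of GRCm38. S100a1 and S100a13 are neighbours, as are S100a8 and S100a9, and S100a11 and S100a10, and S100a4 and S100a6 flank S100a5. The starts listed for S100a1 and S100a13 among the RefSeq promoters point away from each other with 104 bases between them. These bases are shown first, because the genes on their sides moved in opposite directions between E12.5 and adult heart. The whole gene spans overlap by 98 bases, so these starts are not the outer ends of both genes. Reads in the overlap cannot be assigned unless strand was used, which is not stated. The 250 bases before the starts of S100a4, S100a6 and S100a9 follow, because these genes were higher in the library labelled Gata4 KO by a rule of size, at least 2-fold in FPKM and at least 5 FPKM on the higher side. All are from RefSeq promoter tables of build GRCm38.p6, 5′ to 3′ on the stated strand, with capitals marking the motifs named after them.
S100a1 to S100a13, chr3:90514331-90514434, plus strand: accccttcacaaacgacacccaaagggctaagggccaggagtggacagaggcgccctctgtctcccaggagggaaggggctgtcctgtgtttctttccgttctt
S100a4, chr3:90603520-90603769, plus strand: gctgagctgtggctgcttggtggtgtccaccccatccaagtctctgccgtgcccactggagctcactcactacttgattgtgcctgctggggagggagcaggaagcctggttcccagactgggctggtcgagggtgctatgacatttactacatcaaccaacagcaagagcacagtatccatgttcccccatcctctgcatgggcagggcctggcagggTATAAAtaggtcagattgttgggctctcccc
S100a6, chr3:90612644-90612893, plus strand: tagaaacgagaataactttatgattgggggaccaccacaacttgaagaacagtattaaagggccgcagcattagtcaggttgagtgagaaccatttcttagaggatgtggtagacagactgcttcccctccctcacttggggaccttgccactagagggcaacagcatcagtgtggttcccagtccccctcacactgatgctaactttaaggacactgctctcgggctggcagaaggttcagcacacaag
S100a9, chr3:90695722-90695971, minus strand: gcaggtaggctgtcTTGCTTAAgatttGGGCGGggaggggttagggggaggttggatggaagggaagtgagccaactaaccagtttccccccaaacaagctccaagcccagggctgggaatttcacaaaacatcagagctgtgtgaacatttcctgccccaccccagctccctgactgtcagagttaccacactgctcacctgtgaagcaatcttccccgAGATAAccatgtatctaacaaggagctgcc
Motifs were searched on both strands. They were GATA motifs, spelled AGATAA or with G as last base or T as first base, AP-1 motifs, spelled TGACTCA or TGAGTCA, a C/EBP core, spelled TTNNGCAA, a TATA box, spelled TATAAA, and an SP1 box, spelled GGGCGG. None overlapped another in these windows. S100a4 held a TATA box beginning 31 bases before its start, a motif found in the 250 bases before 12.4% of 32851 RefSeq starts. S100a9 held a GATA motif beginning 30 bases before its start, where 26.5% of starts have one in the window, a C/EBP core (9.56% of starts) and an SP1 box (32.7%). The S100a6 window and the bases between the listed starts of S100a1 and S100a13 held none of these letters. Promoter entries were found for 9 of the 10 genes, and S100a10 had none in the table. Windows not shown here were searched too. S100a11 also held a GATA motif, along with AP-1 motifs and SP1 boxes. Its FPKM ratio of the library labelled Gata4 KO to E12.5 was 1.08, so it was not called by size. S100a8 held a TATA box and S100a16 an SP1 box. A link between these motifs and the levels was not tested.

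S100a1 was the leading S100 transcript of the adult, sham and banded heart. Its level was 9.50 and 9.32 in the adult libraries, 9.44 in sham and 10.43 in banding, against 7.62 in E12.5 and 7.27 in heart labelled Gata4 KO. The embryonic libraries lay lowest and banding highest, with no overlap between the embryonic and the other hearts. Its rank among all listed genes was lowest in the labelled library, at the 98.7th percentile. By FPKM it made up 32.6% of the summed level of the 10 genes in E12.5, 24.1% in heart labelled Gata4 KO, 81.4% and 76.9% in adult, 76.9% in sham and 81.0% in banding. In E12.5 the first place belonged to S100a11, with 35.3% of the sum. The first place thus went to S100a11 in the embryonic libraries and to S100a1 in the other 4. The shares do not depend on scaling between libraries.

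**Figure D1:**
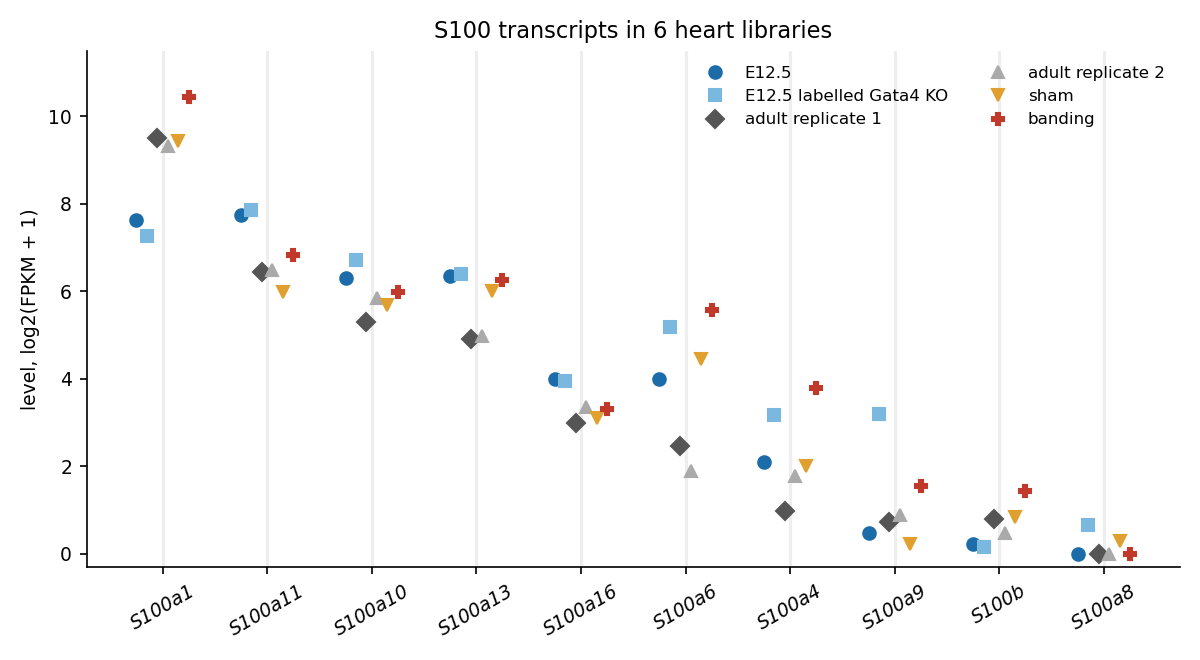
Levels of the 10 S100 transcripts, as log2(FPKM + 1) on the vertical axis, in each of the 6 libraries (1 marker per library, no error bars). S100a1 is highest in banding (10.43) and lowest in the embryonic libraries (7.62 and 7.27), while S100a8 and S100b reach at most 0.65 and 1.42.

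**Figure D2:**
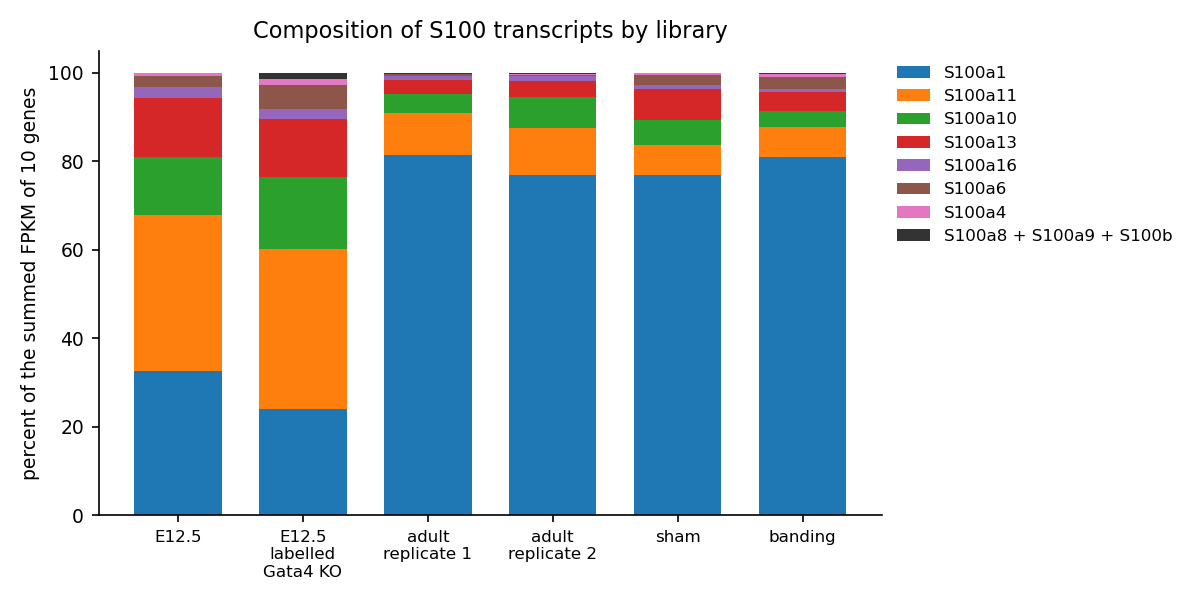
Percent of the summed FPKM of the 10 genes that each gene contributes, by library. S100a1 takes 32.6% in E12.5, 24.1% where Gata4 KO is the label, and 76.9% to 81.4% in the adult, sham and banding libraries.

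The first comparison asked which S100 genes differ between the adult and the embryonic heart. S100a1 rose, S100a6, S100a11 and S100a13 fell, and S100a4, S100a10 and S100a16 did not pass the test. S100a1 rose by 1.79 (SE 0.12, limma adjusted p = 0.00658), and the adult level was 9.41 ± 0.13 (SD, n = 2). S100a11, which pairs with annexin A1, fell by 1.29 (SE 0.06, limma adjusted p = 0.00498), with 7.74 at E12.5 and an adult level of 6.45 ± 0.03 (SD, n = 2). S100a13, which takes part in the export of the growth factor Fgf1, fell by 1.41 (SE 0.07, limma adjusted p = 0.00512), with 6.35 at E12.5 and an adult level of 4.94 ± 0.05 (SD, n = 2). The adult libraries lay close together for these 3 genes and apart from E12.5.

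S100a6, also called calcyclin, fell by 1.81 (SE 0.33, limma adjusted p = 0.0296). It stood at 3.98 in E12.5 and at 2.46 and 1.89 in adult, on 41 and 24 reads. The call was lost with upper-quartile scaling (adjusted p = 0.0586), with median-of-ratios scaling (adjusted p = 0.0545) and without a filter on low values (adjusted p = 0.0821). Its level in sham was 4.46, above E12.5, so the direction held against the adult libraries and not against sham.

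Of the genes that did not pass, S100a10, the partner of annexin A2 whose loops do not bind calcium, stood at 6.31 in E12.5 and 5.29 and 5.85 in adult (adjusted p = 0.137 by limma). S100a16, an S100 protein made in many tissues, stood at 3.995 in E12.5 and 2.99 and 3.34 in adult (adjusted p = 0.0558 by limma). S100a4, known to bind non-muscle myosin, stood at 2.08 in E12.5 and 0.97 and 1.78 in adult (adjusted p = 0.26 by limma). All 3 were lower in both adult libraries than in E12.5. For S100a4 and S100a10 the adult libraries differed from each other by 0.81 and 0.57, while their means differed from E12.5 by -0.71 and -0.74. S100a8, S100a9 and S100b lay below 1 FPKM in all 3 libraries and were not tested.

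Among all 12658 genes tested 23.4% rose and 48.4% fell, 71.8% in either direction, so the 1 rise and 3 falls among 7 tested S100 genes lie near the background. The median difference over all tested genes was -0.51, and upper-quartile scaling moved it to -0.11, with 4054 genes rising and 4433 falling in place of 2965 and 6123. S100a11 then fell by 0.79 (adjusted p = 0.00809) and S100a13 fell by 0.92 (adjusted p = 0.00757) by limma. By the rule of size, S100a1 was higher and S100a6, S100a11 and S100a13 were lower, where 18.4% and 41.1% of 8802 genes were higher and lower, 59.5% in either direction. With upper-quartile scaling 2 of these 4 met it, S100a1 and S100a6, and over all genes 2407 were higher and 2543 lower in place of 1619 and 3621. The adult libraries differed from each other by this rule for 0.588% of genes and for none of the S100 genes. The adult pair alone gave the spread, and limma takes E12.5 to vary as much. With the library labelled Gata4 KO as a second E12.5 library, all 7 tested genes passed, 1 higher and 6 lower.

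**Figure D3:**
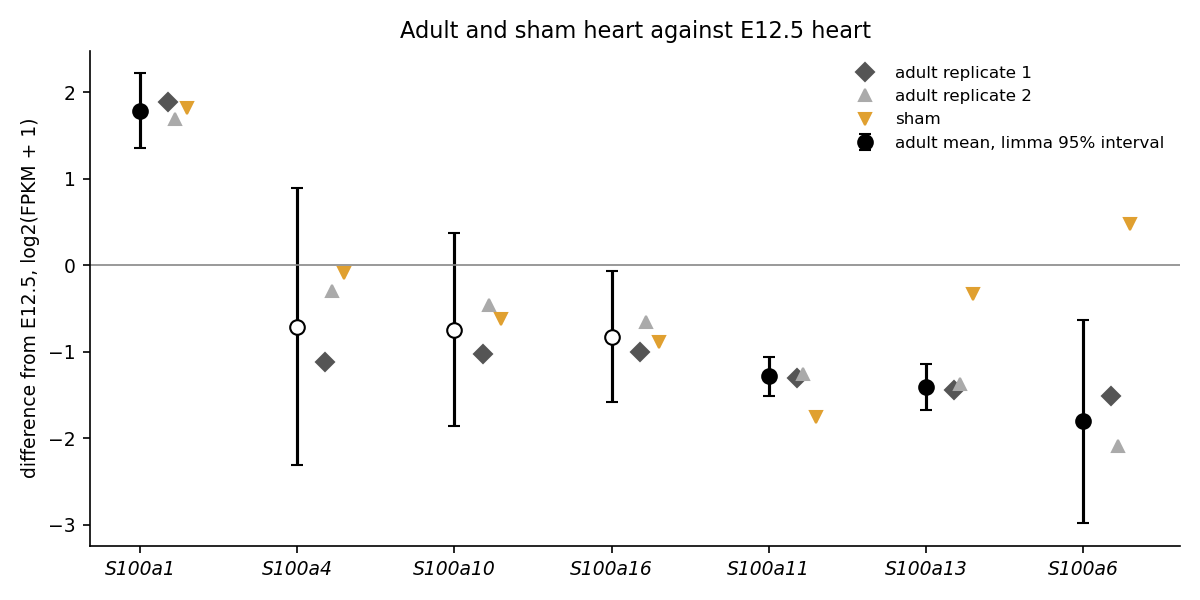
Difference from the E12.5 library in log2(FPKM + 1) for the 7 tested genes. Black points are the adult mean with the 95% interval of limma (filled where the adjusted p is under 0.05), and coloured markers are the single adult and sham libraries. S100a1 lies near 1.8 in the adult and sham libraries, while S100a6 lies at -1.52 and -2.09 in adult and at 0.47 in sham.

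Sham heart was set beside adult heart as a background for banding. S100a6 and S100a13 were higher in sham by the rule of size against each adult library, and no S100 gene was lower, where 5.30% of genes were higher and 40.7% lower, 46.0% in either direction. With upper-quartile scaling 1228 genes were higher and 1126 lower in place of 345 and 2646, and the S100 count stayed at 2. S100a6 reached 5 FPKM in sham and in neither adult library. Rn45s, the ribosomal RNA precursor, stood at 12.94 in sham and 12.96 in banding against 8.65 and 8.94 in adult, and its part in these differences was not tested. For S100a6 the FPKM ratio of sham to adult was 4.63 (95% counting interval 3.29 to 6.67) against replicate 1 and 7.75 (5.05 to 12.4) against replicate 2. For S100a13, at 6.01 in sham against 4.91 and 4.97, the ratios were 2.19 (1.88 to 2.54) and 2.09 (1.8 to 2.42). These intervals are exact conditional binomial intervals and cover counting error only. The S100a1 ratios to the adult libraries were 0.958 and 1.09, and S100a10 lay between the adult libraries, at 5.69 against 5.29 and 5.85. S100a11 was lower at 5.99 against 6.43 and 6.48 without passing, and S100a16 differed from the adult mean by -0.06. On a scale of reads on listed genes alone, the sham levels of all 6 genes at 5 FPKM or more lay above the adult mean, S100a6 by 2.82, S100a13 by 1.66, S100a10 by 0.71, S100a1 by 0.64, S100a16 by 0.48 and S100a11 by 0.13. For S100a1 the difference from the adult mean was 0.03 as deposited and 0.74 with upper-quartile scaling. The directions of S100a11 and S100a16 thus turned with the scaling.

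Sham was also set beside E12.5. S100a13 stood at 6.01 in sham against 6.35, a ratio of 0.788 (95% counting interval 0.711 to 0.872), where the adult ratios were 0.360 and 0.378. S100a11 had a ratio of 0.293 (0.263 to 0.327), where the adult ratios were 0.401 and 0.414. S100a1 was 3.54-fold higher in sham than in E12.5 (3.38 to 3.71) as deposited, between its ratios of 3.24 and 3.69 for the adult libraries. As deposited, S100a1 was thus higher, and S100a11 and S100a13 lower, in sham as in both adult libraries, while S100a6 was above E12.5 in sham and below it in adult. Per reads on listed genes, the level of S100a13 was 6.89 in sham and 6.75 in E12.5, so its direction turned with the scaling. On that scale S100a1 stood at 10.33 in sham, above both adult libraries at 9.79 and 9.60 and above E12.5 at 8.03.

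Banding was compared with sham to ask which S100 genes differ in the loaded heart. S100a4 and S100a6 were higher in banding by the rule of size, and S100a1 lay just outside it. S100a4 reached 3.79 on 90 reads, against 1.99 on 18 reads in sham, a ratio of 4.31 (95% counting interval 2.58 to 7.60). S100a6 stood at 5.57 against 4.46, a ratio of 2.22 (1.87 to 2.65). Banding was the highest of the 6 libraries for both genes. No S100 gene was lower by size, where 3.19% of 5108 genes were higher and 1.62% lower. Scaled without the 50 highest genes, 113 genes were higher and 120 lower in place of 163 and 83, and the S100 count stayed at 2. S100a4 reached 5 FPKM in banding and not in sham, so it could be called in that direction alone.

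S100a1 reached 10.43, against 9.44 in sham, a ratio of 1.98 (1.92 to 2.05) just under the 2-fold limit. S100a11 stood at 6.84 against 5.99, a ratio of 1.82 (1.61 to 2.06). The other abundant genes differed less, with S100a10 at 1.22 (1.07 to 1.39), S100a13 at 1.19 (1.06 to 1.33) and S100a16 at 1.17 (0.895 to 1.54) as FPKM ratios. In all, 9 of the 10 genes were higher in banding and S100a8 was the exception, with 1 read in sham and 0 in banding. Of 11011 genes with at least 1 FPKM in either library, 54.4% were higher. The median difference was 0.71 for the 10 S100 genes, which include S100a8 and S100b at low levels, and 0.03 for those 11011 genes. With 1 library each, none of these differences has a replicate check.

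S100b, low in every heart, was at 1.42 in banding on 39 reads and 0.85 in sham on 16 reads, a ratio of 2.10 (1.15 to 4.03) at a level under the 5 FPKM minimum. The adult libraries stood at 0.78 and 0.47, E12.5 at 0.23 and heart labelled Gata4 KO at 0.14. Banding was thus the highest library and the embryonic libraries the lowest. Of 4 Schwann cell, glial and autonomic neuron genes with at least 1 FPKM, 1 was higher in banding and 3 were lower, where 54.4% of all genes were higher. The higher gene was Ngfr, at 1.52 on 89 reads against 1.10 on 47 reads in sham. Sox10, the factor that defines the lineage, was under 1 FPKM, at 0.37 in banding on 11 reads and 0.54 in sham on 15. Adipoq and Plin1, which mark fat cells, had 1 read each in banding and none in sham. Of 8 adipocyte genes 2 reached 1 FPKM, 1 of them higher and 1 lower in banding, and the summed FPKM was 1982 against 2341. Their part in the level of S100b was not tested.

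**Figure D4:**
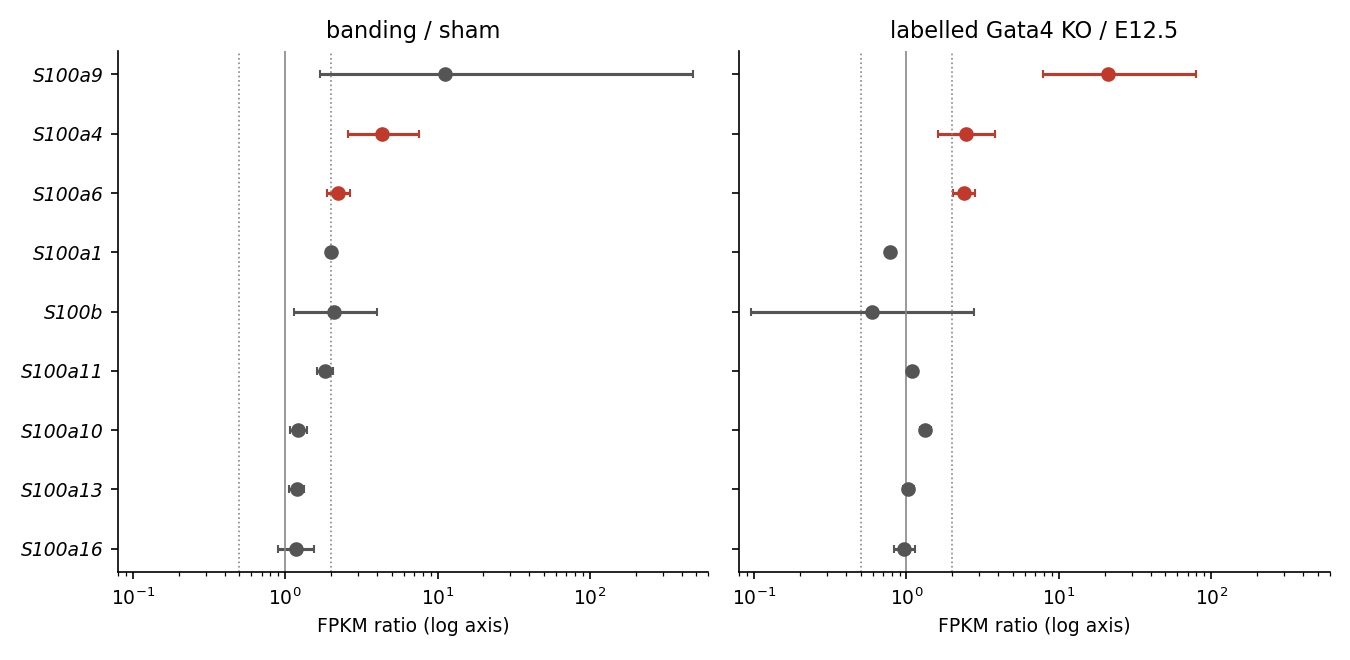
FPKM ratio of banding to sham (left) and of the library labelled Gata4 KO to E12.5 (right) on a log axis, with exact 95% counting intervals, for the 9 genes other than S100a8. Red marks genes that met the rule of size, and dotted lines mark a 2-fold difference. S100a4 and S100a6 are red in both panels, and S100a9 is red on the right, at 21.0.

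The next comparison asked which S100 genes differ between embryonic hearts with and without the Gata4 KO label. S100a4, S100a6 and S100a9 were higher by size where Gata4 KO is the label, and none was lower. Of 8218 genes, 1.85% were higher and 1.01% lower, 2.86% in either direction. Scaled without the 50 highest genes, 194 were higher and 59 lower in place of 152 and 83, and the S100 count stayed at 3. S100a9 stood at 3.20 on 71 reads against 0.47 on 4 reads, a ratio of 21.0 (95% counting interval 7.85 to 79.2). S100a6 stood at 5.18 against 3.98, a ratio of 2.39 (2.03 to 2.81), and S100a4 at 3.17 on 71 reads against 2.08 on 34, a ratio of 2.47 (1.62 to 3.83). S100a4 and S100a9 reached 5 FPKM in the labelled library and not in E12.5, so they could be called in that direction alone.

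S100a9 was under 2 FPKM in the other 5 libraries, with 1.54 in banding on 13 reads, 0.72 and 0.87 in adult on 4 and 5 reads, and 0.23 in sham on 1 read. Its partner S100a8, with which it forms calprotectin, held 4 reads in the labelled library, 1 in sham and 0 in the other 4. A count of 0 allows up to 0.363 FPKM of S100a8 in E12.5 and up to 0.619 FPKM in adult replicate 2. The labelled library was thus the highest for both genes, S100a8 at a level near the limit of counting.

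S100a1 was lower in the labelled library, at 7.27 against 7.62, a ratio of 0.783 (0.735 to 0.833). S100a10 was higher with a ratio of 1.32 (1.22 to 1.44), and S100a11 with 1.08 (1.02 to 1.15). S100a13 and S100a16 had ratios of 1.02 (0.942 to 1.11) and 0.970 (0.824 to 1.14), both with intervals that hold 1. S100a16 lay 0.05 higher in the labelled library when scaled without the 50 highest genes, and 0.04 lower as deposited. The E12.5 library also serves the adult comparison, so the 2 comparisons are not independent. Banding against sham shares no library with the embryonic pair, and S100a4 and S100a6 were called higher in both. By the same rule 3.19% of genes were higher in banding and 1.85% in the labelled library. The share called higher in both was not counted. Other genes called higher in both included Col1a1, Col3a1, Postn and Anxa1. In each pair S100a4 could be called higher alone.

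Genes that mark fibroblasts were mostly higher in banding and in the labelled library, where S100a4 and S100a6 were called higher. Of 14 fibroblast genes, 13 were higher in banding, 8 by size, and their summed FPKM was 968 in banding against 409 in sham. Over all genes with at least 1 FPKM, 54.4% were higher in banding than in sham and 46.4% in the labelled library than in E12.5. By size, 3.19% and 1.85% of genes were higher in these pairs. Postn, a matrix protein of activated fibroblasts, stood at 5.13 against 2.02, Mfap5 at 3.99 against 2.14 and Col1a1, the main chain of fibrillar collagen, at 6.11 against 4.08. In the labelled library 12 of 13 with at least 1 FPKM were higher than in E12.5, 7 by size, with a summed FPKM of 1139 against 822, and Postn stood at 5.34 against 3.83. In adult the sum was 250 and 322, the lowest of the 6 libraries, as were the levels of S100a4 and S100a6. Sham against E12.5 went otherwise, with a fibroblast sum of 409 against 822 while S100a6 stood at 4.46 against 3.98. The sums lean on single genes, Vim being the highest of the list in E12.5, at 9.34, and Dcn in banding, at 8.98. Single genes also went otherwise. Postn was lower in sham, at 2.02, than in adult, at 4.13 and 4.45, and Mfap5 was lower in the labelled library, at 1.73 against 2.498. Other lists were also higher. Of 11 monocyte and macrophage genes with at least 1 FPKM, 9 were higher in banding, with a summed FPKM of 77.8 against 55.0, and none met the rule of size. Of 9 endothelial genes, 8 were higher in the labelled library than in E12.5, with a summed FPKM of 395 against 286, and none met the rule of size, while 3 were higher in banding than in sham. The part of these cells in the levels of S100a4 and S100a6 was not tested.

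Some genes of neutrophils and their precursors were higher along with S100a9 in the embryonic pair. Their summed FPKM was 6.11 in the labelled library and 1.26 in E12.5, and 1 of 15 listed genes was at 0 against 5. Ngp, a granule protein, held 39 reads against 2, Mpo, the myeloperoxidase of granules, 49 against 16, Ltf 16 against 0 and Camp 12 against 2. Other genes of the list did not move so, with Itgam at 12 reads in both, Prtn3 at 5 against 6 and Cebpe at 0 in both. Of the 15, 3 reached 1 FPKM in this pair, all 3 higher. None reached 5 FPKM, so none could meet the rule of size. In the adult, sham and banding libraries, Mpo, Camp and Elane had no reads and Ngp and Ltf had at most 3. In banding and sham the sum was 6.86 and 5.33, with Cxcr2, a chemokine receptor of mature neutrophils, at 2.02 and 1.72. Of 15 monocyte and macrophage genes, 11 of 11 with at least 1 FPKM were higher with the Gata4 KO label, 2 of them by size, and the summed FPKM was 96.4 against 60.6. Erythroid genes were also higher there, 8 of 8, with Hbb-y, an embryonic globin, at 15.34 against 13.71. Of all genes with at least 1 FPKM in this pair, 46.4% were higher, and 1.85% were higher by size. The part of blood cells in the level of S100a9 was not tested.

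Of 12 cardiomyocyte markers, 8 were lower in banding than in sham, none of them by size, while S100a1 was higher. Nppa, the atrial natriuretic peptide, was the 1 marker higher by size, at 12.39 against 8.28. The summed FPKM of the 12, which includes Nppa, was higher in banding, at 34252 against 32455. Of all genes with at least 1 FPKM, 54.4% were higher in banding, and 3.19% were higher by size. The part of these markers in the level of S100a1 was not tested. In the labelled library 8 of 12 were lower than in E12.5, 2 by size, Tnni3 at 7.90 against 10.05 and Mb at 6.11 against 7.88, with a summed FPKM of 27444 against 36841. Of all genes with at least 1 FPKM in that pair, 46.4% were higher, and 1.01% were lower by size. In adult 10 markers rose and 1 fell against E12.5 by limma, where 23.4% and 48.4% of all genes tested did.

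**Figure D5:**
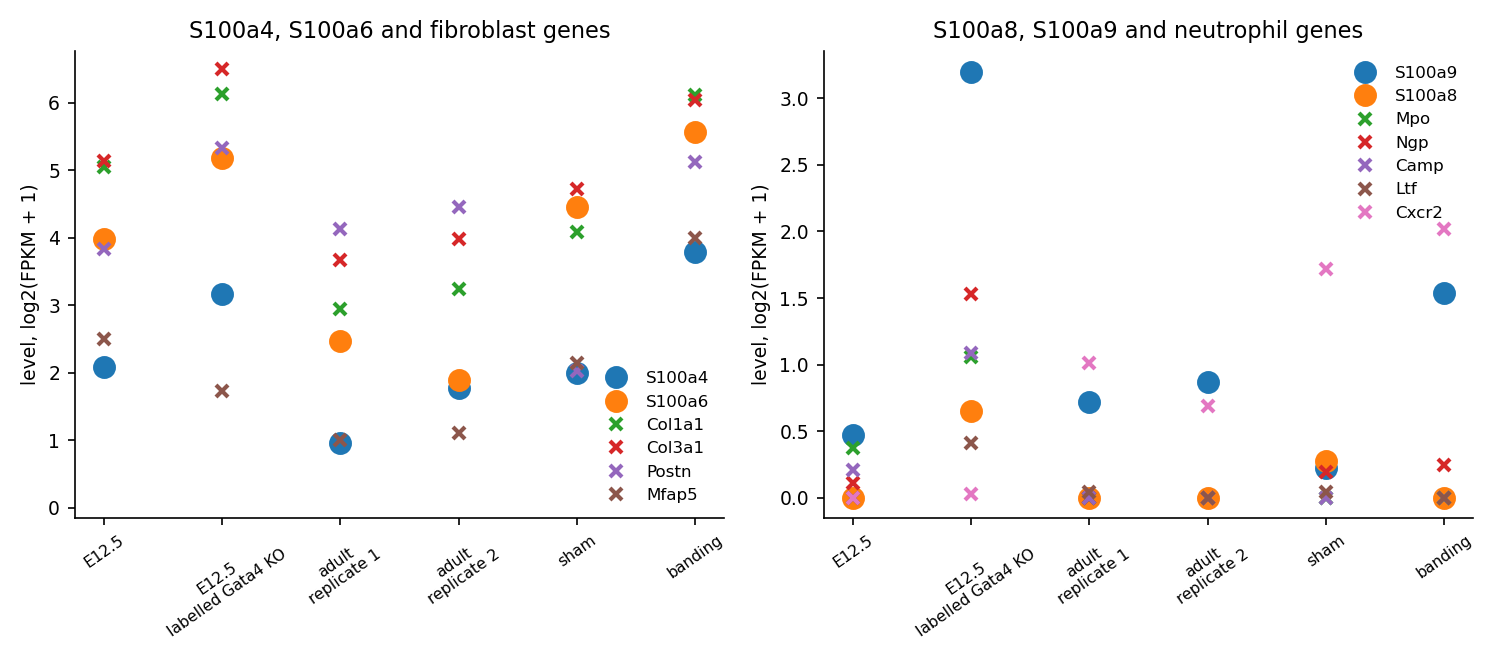
Levels in log2(FPKM + 1) of S100a4 and S100a6 with 4 fibroblast genes (left) and of S100a8 and S100a9 with 5 neutrophil genes (right), in each library. Circles are S100 genes and crosses are marker genes. S100a6 is highest in banding (5.57) and in the library labelled Gata4 KO (5.18), and S100a9 stands at 3.20 in that library, where Ngp (1.53) and Camp (1.09) are also highest.

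Annexins are the membrane-binding proteins that S100a10 and S100a11 join. Between E12.5 and adult, Anxa2, the partner of S100a10, fell by 3.50 (SE 0.07, limma adjusted p = 0.00398), while S100a10 did not pass. Anxa1, the partner of S100a11, rose by 1.41 (SE 0.17, limma adjusted p = 0.0138), while S100a11 fell. Of the 9 annexins tested, 2 rose, Anxa1 and Anxa11, and 3 fell, Anxa2, Anxa5 and Anxa6, where 71.8% of all genes tested passed in either direction. Anxa1 was the annexin higher by size in both pairs of single libraries, at 3.63 in banding against 2.72 in sham and at 2.80 in the labelled library against 1.96 in E12.5. Its ratios, just over the limit, were 2.05 (95% counting interval 1.60 to 2.63) and 2.06 (1.57 to 2.72). In each pair 8 annexins could have met the rule, where 3.19% and 1.85% of genes were higher. In E12.5 Anxa1 was under 5 FPKM, so there it could be called higher alone. Anxa2 stood at 5.03 against 4.39 and at 8.02 against 7.48 in the same pairs.

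Of 25 tested receptors and binding partners of S100 proteins, 13 rose and 6 fell from E12.5 to adult, where 23.4% and 48.4% of all genes did. Cd36, a fatty acid carrier that binds the S100a8 and S100a9 complex, rose by 6.39 (SE 0.12, limma adjusted p = 0.00398). Among the targets of S100a1, the ryanodine receptor Ryr2 rose by 3.25 (SE 0.08, limma adjusted p = 0.00398), the calcium pump Atp2a2 by 3.39 (SE 0.07, limma adjusted p = 0.00398) and its inhibitor Pln by 2.89 (SE 0.11, limma adjusted p = 0.00403). These genes and S100a1 were called in the same direction. Ryr2 and Pln are also among the 12 cardiomyocyte markers, of which 10 rose. Sham lay above E12.5 for Ryr2 (6.85 against 4.57) and Atp2a2 (8.84 against 7.46) but below it for Pln (7.35 against 7.87). In banding none of these targets was higher, with Ryr2 at 6.71 against 6.85 in sham, Atp2a2 at 8.26 against 8.84 and Pln at 7.08 against 7.35. Fgf1, the cargo that S100a13 helps to export, rose by 3.39 (SE 0.07, limma adjusted p = 0.00398) in adult while S100a13 fell, and was higher by size in the embryonic heart with the Gata4 KO label, at 3.39 against 2.25. Myh9, the myosin that S100a4 binds, rose by 1.22 (SE 0.21, limma adjusted p = 0.0251), and Cacybp, the partner of S100a6, did not pass (adjusted p = 0.0882 by limma).

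Ager and Tlr4, receptors of secreted S100 proteins, were low. Ager, the receptor for advanced glycation end products, fell by 0.80, from 1.03 in E12.5 on 30 reads to 0.23 and 0.24 in adult on 3 reads each. Counts that low leave the size of the fall uncertain. Ager stood at 1.60 in banding on 39 reads against 0.79 in sham on 12. Tlr4, a receptor for S100a8 with S100a9, did not pass (adjusted p = 0.0997 by limma), where E12.5 stood at 1.15 and the adult libraries at 2.44 and 1.83. None of the 30 listed receptors and partners met the rule of size in banding against sham. Of these, 19 reached 5 FPKM and could have met it, where 4.82% of 5108 genes did in either direction. The absence of calls thus lies near that share. Ager was under the 5 FPKM minimum in both libraries.

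Other calcium-binding EF-hand proteins were mostly lower in adult. Of 19 tested, 15 fell, where 48.4% of all genes did, and 3 rose, Capns1, Calu and Tesc. Calm3, which encodes calmodulin, fell by 1.69 (SE 0.07, limma adjusted p = 0.00427). Tesc, a regulator of calcineurin and of a sodium exchanger, rose by 2.93 (SE 0.14, limma adjusted p = 0.00466). Rcn3, a calcium-binding protein of the endoplasmic reticulum, fell by 3.73 in adult and was the gene of this list higher by size in banding, at 4.38 against 3.24 in sham. In that pair 12 genes of the list could have met the rule, where 3.19% of genes were higher. A single call lies near that share.

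The rest of the S100 family was close to undetected. S100a2, S100a5 and S100z held no reads in any library, and S100a3, S100a7a and S100a14 stayed under 1 FPKM. S100g, a vitamin D dependent calcium carrier of the gut, had 8 reads in sham and 12 in banding, with levels of 1.25 and 1.48, and 0 to 3 reads elsewhere. S100pbp, which binds an S100 protein and is not one, fell by 2.23 (SE 0.15, limma adjusted p = 0.00668) to an adult level of 2.11 ± 0.14 (SD, n = 2), from 4.34 at E12.5.

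The genes with the most similar profiles were found by the root mean square difference between log2(FPKM + 1) values centred on each gene's mean over the 6 libraries, among 8711 genes. For S100a4 these were Lpar1 (0.32), Col6a2 (0.35) and Mgp (0.39), and for S100a6 Mgp (0.47), Col1a2 (0.49) and Tyrobp (0.53). Col6a2, Col1a2 and Mgp encode matrix proteins, while Lpar1 and Tyrobp do not. A link between these profiles and a cell type was not tested. S100a4 was the nearest other S100 gene to S100a6, at 0.74 and place 23. This was not mutual. In the ranking for S100a4, S100a13 (0.62, place 58) and S100a10 (0.72, place 203) came before S100a6 at place 238. For S100a1 the nearest were Dct (0.18), Scgb1c1 (0.22) and Ndrg2 (0.23), the first and second of them low genes. For S100a9 they were Neil2 (0.43), Fbln2 (0.45) and Casq1 (0.50).

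S100a13 lay nearest to Ssbp4 (0.06), BC037034 (0.08) and Nucks1 (0.09), and S100a11 to Park7 (0.09), Nagk (0.10) and Carhsp1 (0.12). S100a10 lay nearest to Arfgap3 (0.09), Cyb5r3 (0.10) and Orai3 (0.11), and S100a16 to Scarb1 (0.06), Ift52 (0.06) and Cndp2 (0.07). S100a16 was also near to S100a10, at 0.17 and place 18 in the ranking for S100a10, while S100a10 took place 104 in the ranking for S100a16. S100a13 took place 3651 in the ranking for its chromosomal neighbour S100a1, with a difference of 1.49. The neighbours S100a11 and S100a10 differed by 0.37.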

How the data were processed

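The 6 libraries are poly(A) RNA-seq of heart. Each deposited value is a log2 of FPKM + 1, for 23284 listed genes, a scale read from the values. The submitters' processing notes name CASAVA 1.8.2, TopHat 1.4, HTSeq 0.5.3, BWA 0.5.9, MACS 1.4 and build mm9, but not which of them made these values. Whole reads were recovered from the steps of the values for 99.99% of 98043 values above 0, within 0.001 of a read, and give the intervals and floors (3 reads, 95% confidence), which cover counting error only.

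For adult against E12.5, limma (3.58.1, R 4.3.3) was fitted with a trend of variance on level to the 12658 genes that reached 1 FPKM in any of the 3 libraries, and p-values were adjusted over all of them (Benjamini-Hochberg, 0.05), with 1 residual and 1.535 prior degrees of freedom. Comparisons of single libraries used the rule of size, with at least 2-fold and at least 5 FPKM in the higher group, and no p-value. The 2 adult libraries differed by this rule for 38 of 6460 genes and for none of the S100 genes. Fold changes on the log2(FPKM + 1) scale understate low genes. The genes named are Gata4, the members, other family genes reaching 1 FPKM, for each list up to 4 genes past the rule of size (up to 2 of the highest level where none passes), and the 3 nearest profiles of members reaching 5 FPKM, without pseudogenes, small RNAs, clones and predicted genes. Other genes named, such as Ager, Tlr4 and Myh9, and the motifs were chosen after values were seen. Alternatives were other scalings, filters, a pseudocount of 0.1 and left-out libraries. Members and lists were chosen with earlier results of these data known. RefSeq tables of GRCm38 served names, gene order and promoters.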

Additional observations from a re-analysis of the deposited data

How the results depend on the processing

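No paired analysis was possible because the groups compared share fewer than 2 replicate numbers: adult has 2 libraries and each other group has 1. Of the S100 genes, 4 met the rule of size between adult and E12.5; 2 did with upper-quartile scaling, 2 with median-of-ratios scaling and 2 with sham in place of adult, and leaving out 1 adult library gave 4 to 6, S100a10 and S100a16 being added without replicate 2. With sham in place of adult, S100a6 was 0.47 higher than E12.5 where adult was 1.81 lower; the cause was not tested. By limma, 4 S100 genes passed, and 7 did with the heart labelled Gata4 KO as a second E12.5 library, which adds S100a4, S100a10 and S100a16. In banding 2 S100 genes met the rule of size, and 4 did at a minimum of 1 FPKM, which lets in S100a9 and S100b.

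Over all genes, the 1 FPKM minimum tests more genes and called 398 higher and 256 lower in banding (163 and 83 at 5 FPKM), 428 higher and 205 lower for the heart labelled Gata4 KO (152 and 83), and 1011 higher in sham against adult (345). The split of sham against adult, 345 higher and 2646 lower, became 1228 and 1126 with upper-quartile scaling, 804 and 1596 with median-of-ratios scaling, 1244 and 1113 without the 50 highest genes and 1032 and 1317 per reads on listed genes; the cause was not tested. With sham in place of adult, 935 genes were higher than E12.5 (1619 in adult). The counts of S100 genes called in the embryonic pair and in sham against adult stayed at 3 and 2 under every alternative run. The scaling to reads on listed genes and sham in place of adult were chosen after seeing the data. Low counts limit S100a4, S100a8, S100a9 and S100b.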
